A study of Homo sapiens with 18 samples.

Results

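Late loss hybrid regions were places with DRIP-seq peaks in untreated HCT116 cells and shortly after camptothecin (CPT) was added, but without any called peak once CPT had acted for 60 min. They were 236 of 28518 merged regions, a share of 0.828%. The regions were chosen by the 6 DRIP peak lists themselves. Within a treatment, peaks that overlapped a peak of the other replicate by at least 1 bp were kept and merged, the 3 treatments were merged in turn, and a late loss region was one with a peak in both NT lists, in both 5 min lists and in neither 60 min list. Presence of a peak at NT and 5 min and its absence at 60 min are therefore how the regions were selected and not a result, and the values of these 6 lists are given as a description without a test.

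HCT116 is a human colorectal carcinoma line, and all groups were this line with no other genotype named. The 3 groups were not treated (NT), 10 μM CPT for 5 min and 10 μM CPT for 60 min, each with 2 biological replicates. DNA was digested with a restriction enzyme cocktail and hybrids were pulled down with the S9.6 antibody (DRIP), with RNase H digestion ahead of the pull-down in the control libraries. The 12 peak lists, 6 from DRIP and 6 from RNase H libraries, held fold enrichment over input per peak and no gene expression, so the identity of the line could not be set against marker genes.

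An R loop is an RNA:DNA hybrid with the displaced DNA strand, and it forms mainly where RNA is being made. Topoisomerase I (Top1) relaxes the supercoils that travel with RNA polymerase II, and CPT traps it on DNA as a Top1-DNA cleavage complex (Top1cc). RNase H removes the RNA of a hybrid, so a peak that persists in an RNase H library marks DNA that was pulled down without depending on an intact hybrid, or with a hybrid that escaped digestion.

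The lists differed in length, from 30314 to 72879 peaks for DRIP and from 473 to 67188 for RNase H, and the replicate 2 list was the longer in all 6 pairs. The 60 min DRIP lists, with 41668 and 72879 peaks, were longer than the NT and 5 min lists of the same replicate. The number of fragments stacked at each summit could be solved from the fold enrichment and p of most peaks, from 458 of 473 in the shortest list upwards, and came out whole, within 0.001 in −log10 p, in 99.97% or more of the peaks solved in each list. The lowest stack called at 60 min was 5 fragments in replicate 1 and 7 in replicate 2. Late loss regions had a median stack of 13 fragments at 5 min in each replicate, and 82.6% and 47.9% of the 60 min peaks of replicates 1 and 2 stood on stacks of 13 or fewer. Fold enrichment at or under the median of the late loss regions at 5 min was called in 31.2% and 51.9% of the 60 min peaks. Stacks of this count and fold enrichments of this height were thus called at 60 min elsewhere in the genome. Neither is scaled between libraries. The median background at the summits of replicates 1 and 2 was 1.93 and 2.13 at 5 min, and 1.24 and 2.41 at 60 min. Why the late loss regions had no call at 60 min was not tested. A peak that was not called is still no measurement of zero signal, and the lists carry no level at a place without a peak.

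Of the 12 late loss regions that ranked highest in their weakest list, 2 are shown as DNA, because they carried the most runs of G among the windows of unique sequence without UTR bases, at the end of a gene and in an intron. Each run is 300 bases of GRCh37 centred on the summit of the NT replicate 1 peak, on the sense strand of the gene, with runs of 3 or more G in capitals.
SCLY and ESPNL, chr2:239009118-239009417, forward strand: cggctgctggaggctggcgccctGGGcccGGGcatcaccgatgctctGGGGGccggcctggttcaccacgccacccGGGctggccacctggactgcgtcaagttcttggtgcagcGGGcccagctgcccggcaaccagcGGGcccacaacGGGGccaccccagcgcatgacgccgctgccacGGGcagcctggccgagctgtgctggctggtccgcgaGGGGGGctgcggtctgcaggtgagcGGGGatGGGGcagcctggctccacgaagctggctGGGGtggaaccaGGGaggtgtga
INPP5A, chr10:134384604-134384903, forward strand: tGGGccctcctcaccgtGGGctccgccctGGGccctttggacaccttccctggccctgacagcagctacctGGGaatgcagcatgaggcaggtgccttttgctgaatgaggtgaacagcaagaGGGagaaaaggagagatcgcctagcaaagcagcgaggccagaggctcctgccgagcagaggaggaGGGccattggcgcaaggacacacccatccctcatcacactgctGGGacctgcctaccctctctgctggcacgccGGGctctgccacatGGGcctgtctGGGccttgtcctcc

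The window next to SCLY, past the annotated end of that gene and largely in a coding exon at the start of its neighbour ESPNL, had 13 such runs at 73.3% GC, and the INPP5A window had 10 at 63.3% GC. On the same strand the windows also held 7 and 8 runs of 3 or more C. G outnumbered C in the first, at 121 to 99, but not in the INPP5A window, at 92 to 98. All 31-base words of both windows were unique in GRCh37. Repeat elements were not annotated in the files used here, and what part repeated sequence had in the calls was not tested.

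Most regions with peaks in NT and at 5 min still had them at 60 min. Of 4538 regions with a peak in both NT and both 5 min lists, 3719 (82.0%) kept a peak in both 60 min lists, 451 (9.94%) kept one in replicate 2 alone and 132 (2.91%) in replicate 1 alone. The remaining 236 (5.20%) had none. The 3719 regions with a peak in all 6 lists are called no change regions below, and the 583 with a peak in 1 of the 60 min lists lie between the 2 outcomes.

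The ezrin gene held the widest of these 12 regions. EZR codes for ezrin, which links the plasma membrane to the actin cortex. The region chr6:159185095-159195668 was 10574 bp wide and spanned the 3′ end of EZR and the 3′ end of the convergent gene SYTL3, with its midpoint in a coding exon of EZR. Peaks covered 9000 and 10574 bp of it in NT replicates 1 and 2, and 1173 and 8311 bp at 5 min. Fold enrichment at the highest peak was 8.02 and 8.64 in NT, then 4.62 and 9.58 at 5 min. The replicates went opposite ways at 5 min, with a lower value in replicate 1 and a higher one in replicate 2. At 60 min the nearest peaks lay 35401 bp away in replicate 1 and 21261 bp away in replicate 2. The second late loss region of EZR began 463 bp further on, at chr6:159196132-159198926, with fold enrichments of 4.48 and 7.11 in NT and of 2.56 and 8.18 at 5 min. EZR also held 2 regions with peaks in both 60 min lists, so the gene as a whole did not go without called hybrids.

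**Figure D1:**
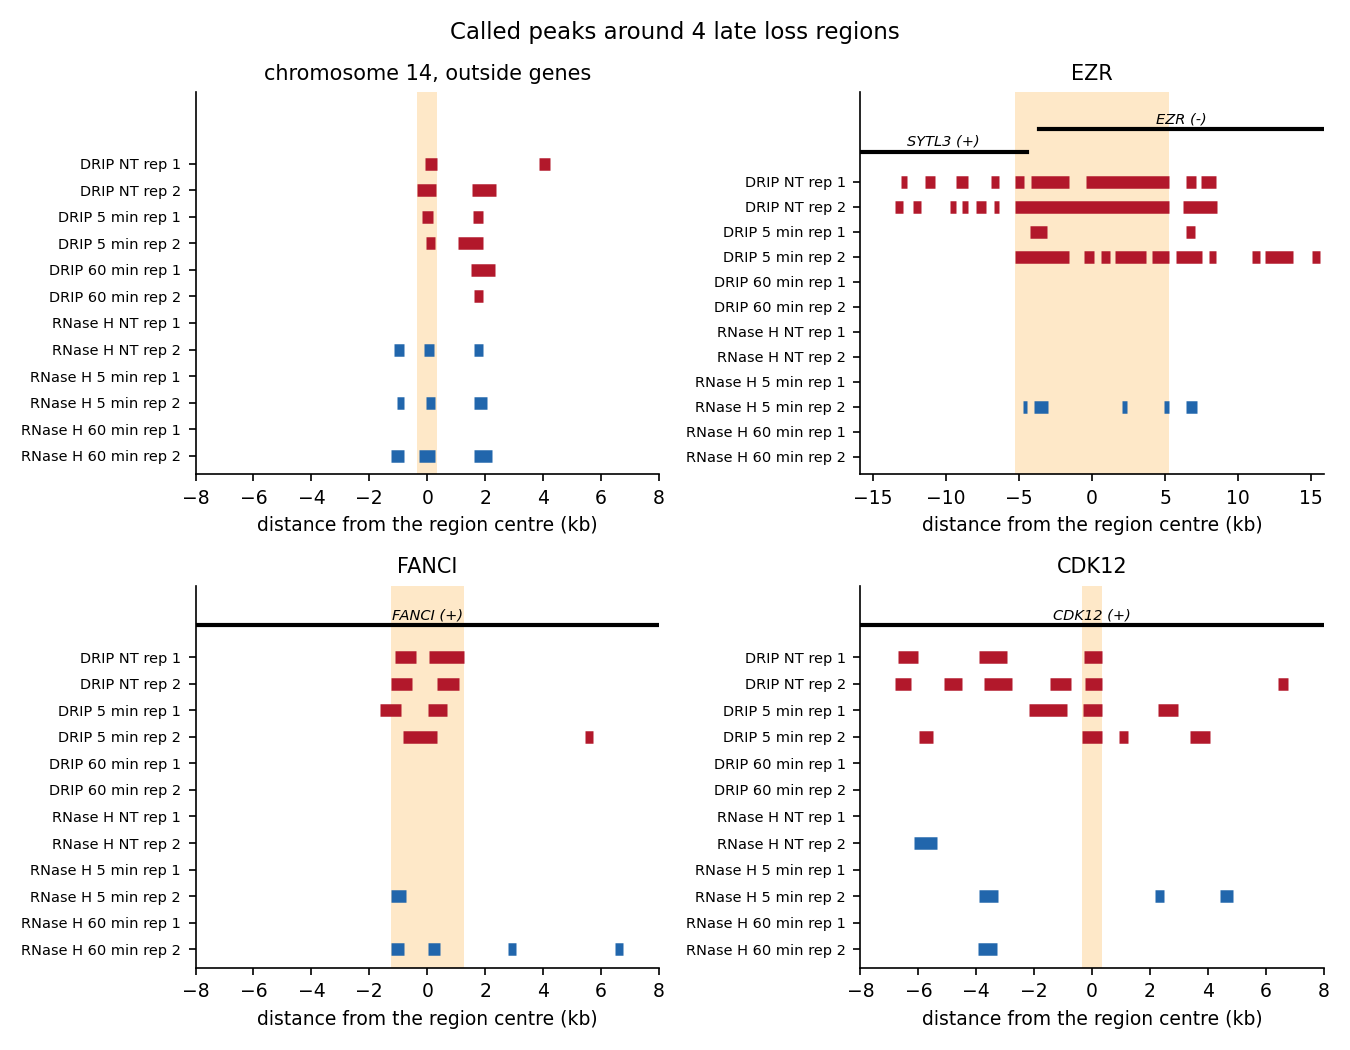
Called peaks around 4 late loss regions: 1 outside genes on chromosome 14, and those in EZR, FANCI and CDK12. Each row is 1 peak list, red bars are DRIP peaks, blue bars RNase H peaks, the shaded band is the region, black lines are protein-coding genes with their strand, and the horizontal axis is the distance from the region centre in kb; in all 4 panels the 2 rows of the 60 min DRIP lists are empty inside the band, while RNase H bars of 60 min replicate 2 remain in it on chromosome 14 and in FANCI.

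The region with the strongest weakest peak, chr14:48880725-48881419, lay far from protein-coding genes. Its nearest was MDGA2, a neuronal adhesion protein gene, 736264 bp away, and its midpoint fell in a lncRNA gene. Fold enrichment was 5.72 and 6.77 in NT and 6.02 and 5.90 at 5 min. The 4 values lay close together, between the 86.2 and 93.6 percentile of their lists. DRIP peaks of both 60 min lists began 1168 and 1252 bp away, and RNase H peaks of replicate 2 covered the region itself at 9.21 in NT, 6.80 at 5 min and 7.43 at 60 min. Of the 31-base words around its summit 97.8% recur elsewhere in GRCh37, and how reads that match several places were handled is not given in the sources used here, so these peaks cannot be tied to this place alone. The same holds for chr14:24998124-24998945 (86.7%), FANCI (79.3%) and CDK12 (69.6%).

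The region at the end of SCLY, the selenocysteine lyase gene, at chr2:239004774-239009679, spanned 4906 bp and also touched the read-through gene UBE2F-SCLY and the neighbour ESPNL. Fold enrichment was 6.23 and 8.42 in NT and 5.22 and 5.77 at 5 min, lower at 5 min in both replicates. Peaks covered 4357 and 4906 bp in NT and 1890 and 2214 bp at 5 min, and the nearest 60 min peak was 18537 bp away. Peaks thus covered less of this region at 5 min in both replicates. Called peaks were also narrower over the whole lists. Their mean width in replicates 1 and 2 was 1023 and 1127 bp in NT, and 737 and 832 bp at 5 min.

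Genes of DNA repair and transcription were among the 12 as well. FANCI, which acts with FANCD2 in the Fanconi anaemia pathway, had fold enrichments of 4.22 and 5.08 in NT and of 4.81 and 4.82 at 5 min at chr15:89838069-89840596 in an intron, and RNase H peaks of replicate 2 at 5 min (4.75) and 60 min (3.64). CDK12, a kinase of the RNA polymerase II carboxy-terminal domain, had 4.25 and 4.27 in NT and 4.36 and 4.77 at 5 min at chr17:37714427-37715121, also in an intron. In CDK12 no RNase H list had a peak in the region, and the nearest 60 min peak lay 36274 bp away. The next gene, SENP2, which codes for a SUMO protease, had 8.33 and 3.95 in NT and 4.96 and 5.34 at 5 min at chr3:185347891-185348976, where the NT replicates differed by more than NT and 5 min did. RNase H peaks met the SENP2 region in both 5 min lists at 5.30 and 5.80, above the DRIP values of the same replicates, and in replicate 2 of NT (4.42) and of 60 min (4.13). The nearest 60 min DRIP peak lay 650 bp from the SENP2 region and 12977 bp from the FANCI region. KIF24, a kinesin of the centriole, had 5.44 and 6.03 in NT and 5.15 and 4.45 at 5 min at chr9:34269396-34270441, with the nearest 60 min peak 37182 bp away.

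The others of the 12 were of similar height. The region of PROZ (protein Z, a plasma protein of coagulation) at chr13:113815266-113816097 had 6.68 and 5.84 in NT and 4.56 and 5.54 at 5 min. The region of INPP5A (an inositol polyphosphate 5-phosphatase) at chr10:134384189-134385349 ranged from 4.31 to 4.81 over the 4 lists. CCDC65, a ciliary protein, ranged from 4.71 to 6.79 at chr12:49311499-49312806. In chr14:24998124-24998945, outside genes and 21064 bp from the mast cell chymase gene CMA1, the values were 4.51 and 5.23 in NT and 6.24 and 8.53 at 5 min, and in chr4:104212653-104213113, in LINC02428 and 93281 bp from the kinetochore motor gene CENPE, they were 4.21 and 4.31 in NT and 6.26 and 4.92 at 5 min. These 2 regions outside genes were higher at 5 min than in NT in both replicates, the opposite of SCLY and PROZ. The nearest 60 min DRIP peaks lay 22732 bp from the PROZ region, 8202 bp from INPP5A and 562 bp from CCDC65. For the regions near CMA1 and CENPE the distances were 8660 and 3533 bp.

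Strength over all 236 was moderate. Fold enrichment of the highest peak ranged from 2.18 to 9.96 around a median of 4.10 in NT replicate 1 and from 2.43 to 12.65 around 4.28 in NT replicate 2. At 5 min it ranged from 2.29 to 8.42 around 3.82 in replicate 1 and from 2.14 to 9.58 around 4.18 in replicate 2. Ranked within their own list, the late loss regions had median percentiles of 59.2 and 70.3 in NT and of 39.0 and 56.0 at 5 min. No change regions had 85.8 and 93.1 in NT and 79.2 and 93.0 at 5 min, and regions with a 60 min peak in 1 list had 72.1 and 75.9, then 55.2 and 69.3. The late loss regions thus ranked lowest of the 3 sets in each of the 4 lists. No change regions were also wider, with a median of 5787 bp beside 1408 bp, and so could hold more peaks to take the highest from. Stable loss regions ranked lower than late loss in NT, at 39.3 and 58.6. Of the 236, 22 (9.32%) stood above the middle of all 4 lists, against 57.7% of the no change regions. The mean percentile over the 4 lists had a median of 53.6.

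**Figure D2:**
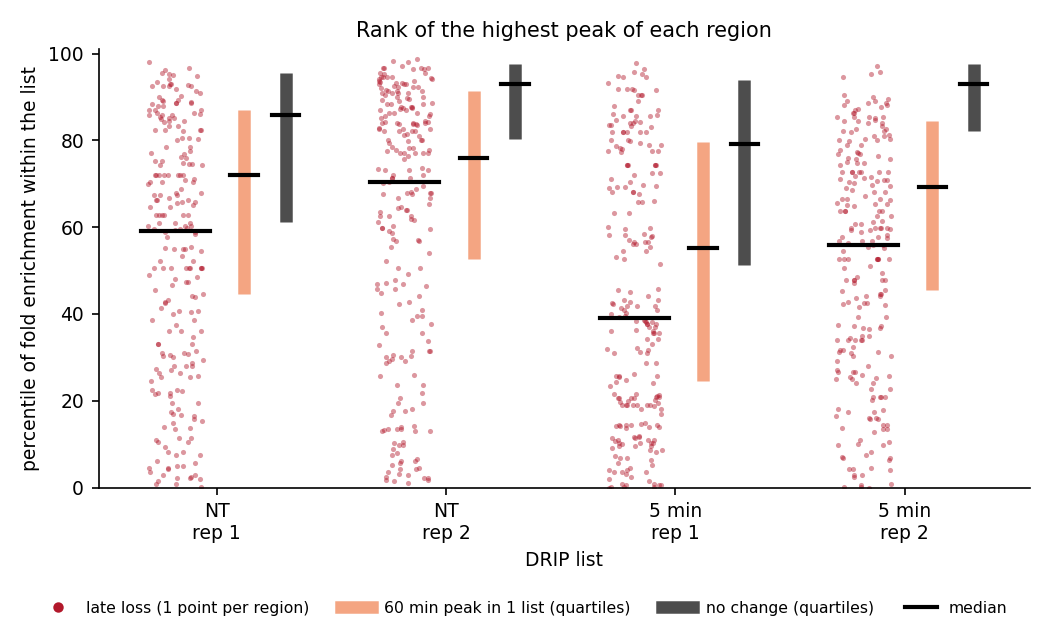
Percentile of fold enrichment of the highest peak of each region within each of the 4 DRIP lists that carry the late loss regions. Each red point is 1 of the 236 late loss regions, bars run from the lower to the upper quartile of regions with a 60 min peak in 1 list (orange) and of no change regions (grey), and black lines are medians; late loss medians are 59.2, 70.3, 39.0 and 56.0 from left to right, under those of both other sets in every list.

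Movement from NT to 5 min was mixed. Peaks covered fewer bases at 5 min than in NT in both replicates in 110 late loss regions (46.6%), beside 47.8% of the 4538 regions in all 4 lists. The percentile was lower at 5 min in both replicates in 86 (36.4%), beside 36.8%, and higher in both in 32 (13.6%), beside 28.2%. The rule used these lists, so these shares are given as a description.

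The mixed picture divided by place, much as it did among all regions in the 4 lists. Within genes, 54.2% of the late loss regions had fewer bases covered at 5 min in both replicates, against 32.1% outside genes, and the same shares among all regions in the 4 lists were 52.4% and 33.8%. The median extent at 5 min was 70.7% and 66.1% of NT within genes in replicates 1 and 2, and 103% and 93.1% outside them. The widest region, chr16:88797866-88819241 in PIEZO1, a mechanosensitive ion channel gene, was 21376 bp wide with 15488 and 21376 bp covered in NT and 441 and 7845 bp at 5 min. The narrowest, chr19:57492968-57493340 outside genes, was 373 bp wide with 373 and 368 bp covered in NT and 356 bp in each 5 min list. In PIEZO1 the extent at 5 min was far under that of NT in both replicates, and in the narrow region it was nearly that of NT. The PIEZO1 region was picked as the widest, and NT replicate 2 covered all of it. Its smaller extent at 5 min is thus no separate result. The nearest 60 min peak lay 635 bp from the PIEZO1 region.

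**Figure D3:**
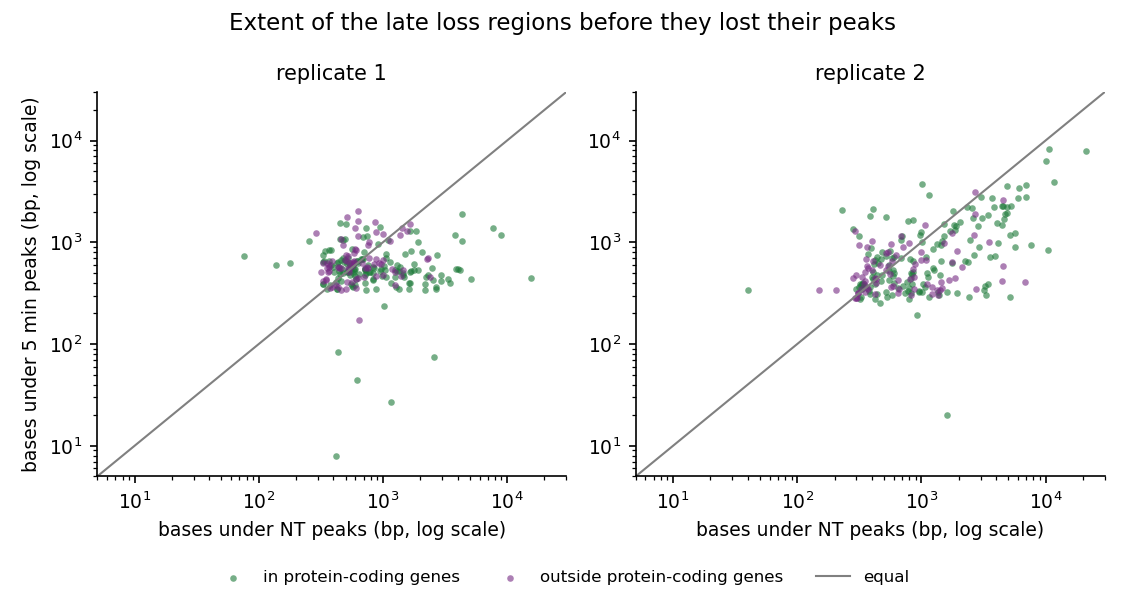
Bases of each late loss region under called peaks in NT (horizontal) and after 5 min CPT (vertical), in replicate 1 (left) and replicate 2 (right), both axes in bp on a log scale. Green points are regions with the midpoint in a protein-coding gene, purple points those outside, and the grey line marks equal extent. The broad regions at the right of both panels lie under the line. They are at the right because of their large NT extent, so this is no separate result. Median 5 min extents were 84.5% and 70.0% of NT over all 236 regions.

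Position in the gene set the late loss regions apart from most hybrids by count. Hybrids are best known at the starts of genes with CpG islands and at gene ends. The 236 regions lay away from gene starts: 7 of them (2.97%, 95% Wilson interval 1.44 to 5.99%) came within 1 kb of a protein-coding gene start, beside 19.2% of all regions, 49.5% of the no change regions and 7.55% of those with a 60 min peak in 1 list. Of the 147 with the midpoint in exactly 1 protein-coding gene, 112 (76.2%, interval 68.7 to 82.4%) were past the middle of that gene, beside 36.2% of all regions. The share was 36.6% in no change, 64.6% in regions with a 60 min peak in 1 list, 68.7% in stable loss (peaks in NT and at neither CPT time) and 47.4% in transient loss (peaks in NT and at 60 min, none at 5 min). The median position was 67.1% of the way from start to end, beside 32.8% over all regions and 69.4% in stable loss. Regions are not replicates of a treatment, so these shares carry counting intervals and no test.

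Gene ends were nearby somewhat more often than in the background by count. A gene end but no gene start lay within 1 kb of 24 late loss regions (10.2%, interval 6.93 to 14.7%), beside 6.67% of all regions and 14.4% of transient loss regions. By midpoint, 138 regions (58.5%) were intronic, 8 were in coding exons, 8 in 3′UTRs and 1 in a 5′UTR. The genes entered had a median length of 76889 bp, beside 52858 bp over all regions with a gene and 31609 bp in no change. It was 79487 bp in regions with a 60 min peak in 1 list, 67513 bp in stable loss and 27877 bp in transient loss.

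Only 4 regions had the midpoint in a 5′UTR or within 1 kb of a gene start. In OR1F1, an olfactory receptor gene, chr16:3237678-3239534 had fold enrichments of 3.95 and 4.00 in NT and 6.43 and 4.15 at 5 min. In RNF4, a SUMO-targeted ubiquitin ligase gene, chr4:2511630-2515396 had 5.16 and 6.17 in NT and 3.23 and 4.65 at 5 min, near the start of the overlapping gene ENSG00000290180, which begins within RNF4 and runs past its end. Next to YJU2B, chr19:13841733-13843144 had 2.65 and 4.41 in NT and 3.14 and 5.11 at 5 min. In MC1R, the melanocortin 1 receptor gene, chr16:89979851-89981187 had 2.69 and 2.51 in NT and 4.27 and 3.35 at 5 min. By fold enrichment and by percentile RNF4 was lower at 5 min in both replicates, and YJU2B and MC1R were higher in both. In OR1F1 the percentile went from 55.1 to 93.2 in replicate 1 and from 61.9 to 55.1 in replicate 2.

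The 5 longest genes entered held 1 late loss region each. They were the unnamed gene ENSG00000282278 (917434 bp), NFIA (597530 bp), KIRREL3 (580103 bp), SCFD2 (493085 bp) and PLD5 (441712 bp), each with an intronic region. NFIA, a transcription factor gene, had weak peaks, with fold enrichments of 3.22 and 4.31 in NT and 3.20 and 2.99 at 5 min, in the region with the lowest GC of all, 33.7%. PLD5 had 3.79 and 2.64 in NT and 6.82 and 4.08 at 5 min, higher in both replicates. Genes over 200 kb held 23 of the 236 regions (9.75%), beside 8.69% of all regions.

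None of the 4 gene lists looked up had a late loss region. The common fragile site genes (25 annotated), the genes of Top1 and hybrid processing (20), p53 targets (16) and colorectal epithelial genes (16) counted 0 members each, while 8, 7, 7 and 6 of their genes had a region with peaks in all 4 NT and 5 min lists. Over all 20176 protein-coding genes, 168 (0.833%) overlapped a late loss region, so a count of 0 in a list of this size is near that background.

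Most genes with a late loss region also held a region that was called at 60 min. Of the 168 genes, 150 had another region, and 129 had one with a peak in both 60 min lists, counting regions first called at that time. These counts were not set against those of other genes. In 18 genes the late loss region was the only one, and 10 genes held 2 late loss regions. Among them, singled out after their values were seen, were EZR, ARHGAP23, PTPRS (a receptor tyrosine phosphatase), UBE2O (a ubiquitin ligase), CMIP and TMEM120B, with 341 bp between the 2 regions of ARHGAP23 and 1576 bp between those of PTPRS. In ARHGAP23 both regions were at the 3′ end and the nearest 60 min peaks lay 20941 and 24171 bp away. Chromosome 17 held 29 of the 236 (12.3%), beside 6.95% of all regions. Of its 374 regions in all 4 NT and 5 min lists 7.75% were late loss, beside 5.20% over all chromosomes and 9.16% on chromosome 6. Chromosomes 18 and X had no late loss region, but only 30 and 44 regions in all 4 lists.

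Regions outside genes were more frequent than in the background by count. The midpoint lay outside protein-coding genes in 81 (34.3%, interval 28.6 to 40.6%), beside 25.3% of all regions and 21.5% of no change. The share was higher than in late loss in regions with a 60 min peak in 1 list, at 233 of 583. It was lower in stable loss, where 1643 of 2244 regions had the midpoint inside such a gene. Among the 81 late loss regions, 57 lay over 10 kb from any protein-coding gene, 20 lay over 100 kb away, and 18 lay in a lncRNA gene. These counts are not set against those of other regions outside genes, so no difference is read from them.

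Base composition followed the place. GC was under 40% in 32 late loss regions (13.6%, interval 9.77 to 18.5%), beside 15.4% of all regions, 8.36% of no change and 4.19% of stable loss. Within genes 6.45% had such low GC, beside 12.2% of all genic regions, and outside genes 27.2%, beside 24.7%. The median GC was 50.1% over the late loss regions and 49.0% over all regions. Within genes 35.5% of the late loss regions had 55% GC or more, beside 27.9% of all genic regions, and outside genes 8.64%, beside 19.5%.

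**Figure D4:**
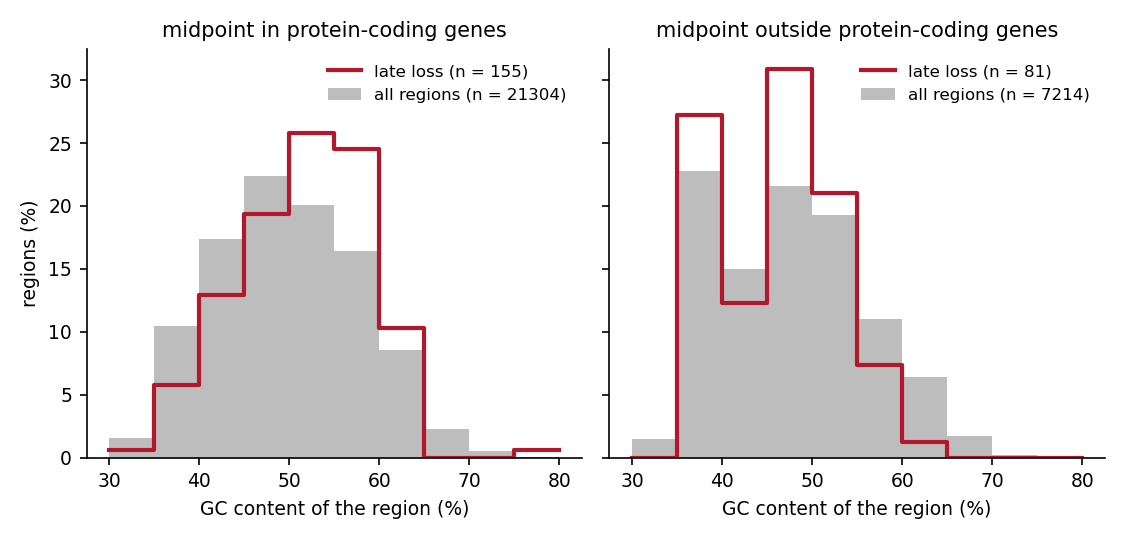
Share of regions (%) by GC content of the whole region (%, in steps of 5) with the midpoint in protein-coding genes (left) or outside them (right); the red line is late loss (155 and 81 regions) and grey bars are all regions. Late loss has 6.45% of its genic and 27.2% of its intergenic regions under 40% GC, beside 12.2% and 24.7% of all regions.

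Strand asymmetry, repeated sequence and runs of G were near the background of all regions by count, and restriction fragments were longer than over all regions. On the sense strand of the gene, G outnumbered C in 67.3% of the late loss regions (99 of 147), beside 65.1% of all regions, with a median skew of 0.035 beside 0.032. A pattern of 4 runs of at least 3 G, or of 3 C for the other strand, spaced by 1 to 7 bases, was found in the central 300 bp of 15 regions (6.36%, interval 3.89 to 10.2%), beside 9.18% of all regions and 519 of the 3719 no change regions. At least 50% of the 31-base words of the central 300 bp recurred in GRCh37 in 28.4% of the late loss regions (interval 23.0 to 34.5%), beside 26.1% of all regions, 21.9% of no change and 37.0% of regions with a 60 min peak in 1 list. The share was 19.4% within genes and 45.7% outside, beside 20.6% and 42.2% of all regions. Restriction fragments around the midpoint had a median of 4367 bp, beside 3538 bp in no change and 2539 bp over all regions. The median was 4252 bp in regions with a 60 min peak in 1 list, 3838 bp in stable loss and 3024 bp in transient loss.

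The RNase H lists were not used to choose the regions, but they came from RNase H-digested DNA of the same samples as the DRIP lists that were, so a region chosen for peaks at 5 min and none at 60 min is not free to vary in them. Their values are given as a description. In replicate 2 an RNase H peak met 25.8% of the late loss regions in NT, rather more at 5 min (47.5%) and 33.9% once CPT had acted for 60 min. Over all regions it was 13.2%, 43.3% and 65.3%, and in no change 36.5%, 87.6% and 95.5%. The late loss share was lower at 60 min than at 5 min, while the shares of all regions and of no change, which was chosen for its 60 min peaks, were higher. Stable loss regions, chosen like late loss for having no 60 min peak, had 11.6% in NT, 13.1% at 5 min and 247 of 2244 at 60 min. In replicate 1, whose RNase H lists were short, the late loss share was 0 of 236 in NT, which allows up to 1.27%, 2.12% at 5 min and 1.27% at 60 min, beside 0.386%, 2.98% and 2.78% of all regions.

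With 2 libraries a group, no difference could pass a test over libraries. Averaged over replicates, NT had 12.9%, the 5 min libraries 24.8% and the 60 min libraries 17.6%, so 5 min minus NT was 11.9 percentage points and 60 min minus NT was 4.66, each with p = 0.667 in a two-sided exact permutation test over libraries (2 against 2), where the smallest possible p is 0.33. The difference had the same sign in both replicates, 2.12 and 21.6 points at 5 min and 1.27 and 8.05 points at 60 min. Over all regions the mean differences were 16.4 points at 5 min and 27.3 at 60 min, and in no change 30.5 and 33.4. They were 17.4 and 16.0 in regions with a 60 min peak in 1 list, and 1.07 and -0.0446 in stable loss. In each replicate the RNase H lists were longer at both CPT times than in NT. With lists cut to equal size both late loss mean differences turned negative, to -0.500 points at 5 min and -1.50 points at 60 min. Each DRIP list then held 30314 peaks and each RNase H list 473, so few RNase H peaks were left to meet a region. The set was also another one, of 300 regions, which took in 42.8% of the 236. In the full lists the difference from 5 to 60 min was -0.847 and -13.6 points in late loss and -0.193 and 22.0 points over all regions (exact permutation p = 0.667 and 1.00).

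**Figure D5:**
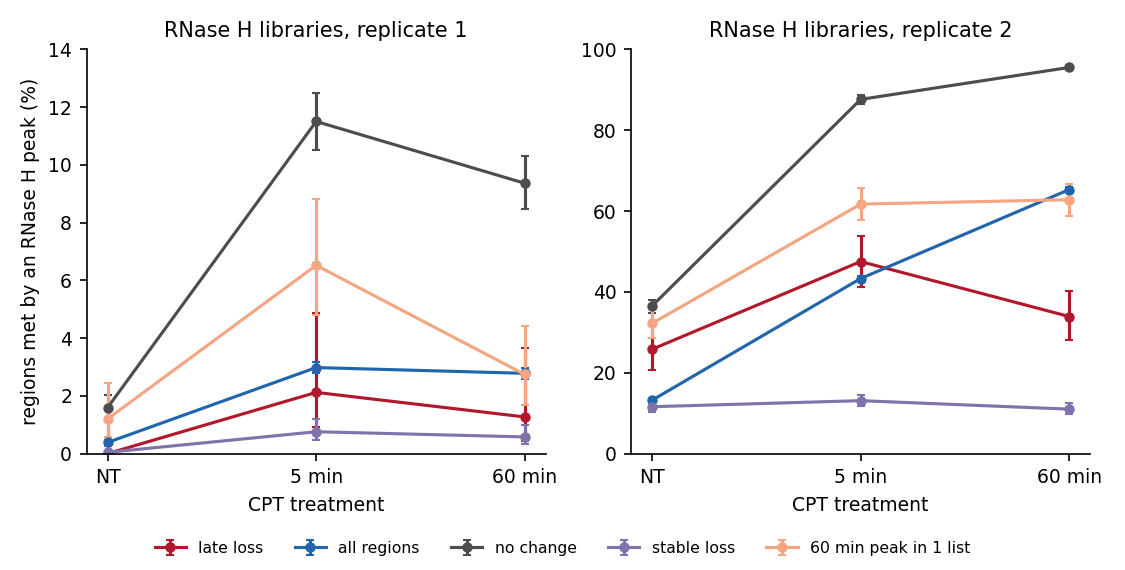
Share of regions (%) met by a peak of each RNase H library, in replicate 1 (left, axis to 14%) and replicate 2 (right, axis to 100%), over the 3 treatments. Points are shares, bars are 95% Wilson intervals over regions and cover counting error alone; in replicate 2 late loss runs 25.8, 47.5 and 33.9% while all regions run 13.2, 43.3 and 65.3%.

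Some late loss regions met an RNase H peak at 60 min. In all, 156 of 236 (66.1%) met a peak in at least 1 of the 6 RNase H lists, beside 73.4% of all regions and 97.9% of no change. In replicate 2, 80 regions met a 60 min RNase H peak, 24 of them met one at all 3 times and 23 at 60 min alone, while 47 others met one at 5 min alone. Peaks at 5 min alone were 19.9% of late loss, 5.36% of all regions and 1.64% of no change. The fold enrichment of the 80 had a median of 3.8 and ran up to 7.43, the value at the chromosome 14 region, and in 38 of them it was above the 5 min DRIP value, 2 values that are not on a common scale. At these 80 places DNA was called in the RNase H-digested pull-down of 60 min and not in the undigested one.

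The 80 differed in place from the other 156 by count. Of the 80, 45.0% lay outside genes, beside 28.8%, and a 60 min DRIP peak lay within 1 kb of 30.0%, beside 13.5%. Neither split was made over all regions, so whether these contrasts are particular to late loss was not tested. By GC, 22 of the 32 regions under 40% GC (68.8%, interval 51.4 to 82.0%) met the 60 min RNase H list of replicate 2, and 28.4% of those at 40% or more. The same share was 72.8% in all regions of the 4 lists with GC under 40% and 54.2% in all regions with GC under 40%. The AT-rich late loss regions were thus near their background in this list, while over all late loss regions the share of 33.9% lay below the 65.3% of the whole.

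The next 60 min peak was often several kb away. The nearest 60 min DRIP peak of either list lay 19 to 425460 bp away, with quartiles of 1384, 4993 and 16396 bp, and within 1 kb in 45 regions (19.1%). For 80 regions (33.9%) it was over 10 kb away, beside 38.8% of stable loss. Within genes the median distance was 6596 bp and outside genes 3529 bp.

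At the edge of the rule the values were close. Just inside it, chr8:43312457-43313341 outside genes lay 19 bp from a 60 min peak of replicate 1, chr17:18772521-18773094 in PRPSAP2 lay 61 bp from one, and chr1:204234015-204236796 in PLEKHA6 lay 73 bp from a peak of replicate 2. Just outside it, chr1:71519614-71521088 had a single 60 min peak, in replicate 2, with a fold enrichment of 2.32 at the 0.232 percentile of that list. Next came chr5:150477102-150479209 and chr8:1834707-1836346 in ARHGEF10, each with 1 peak of 2.72 in replicate 1. All 3 of these peaks stood among the weakest of their list.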

How the data were processed

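DRIP-seq and RNase H-digested DRIP-seq of HCT116 cells were given as 12 peak lists, and the input libraries entered as the paired controls of peak calling. Per the study's methods and the submitters' processing notes, reads were trimmed with cutadapt, aligned with BWA (hg19, with sacCer3 for the yeast spike-in), stripped of duplicates and blacklisted places, and peaks were called for each library against its input with MACS2. Versions and calling options were not given in the sources used here. The deposited lists hold the fold enrichment (a ratio to the local background), the −log10 p and −log10 q, a score that was 10 times the −log10 q, and the summit; the values are not scaled by the spike-in. Fold enrichment is printed as deposited, and its differences between lists are not on a common scale; percentiles within each list were used for comparisons over all members. Depth is unknown from the lists apart from the summit fragment counts recovered from the fold enrichment and p.

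Members and gene lists were chosen with earlier results of these data known. Regions were built in Python 3.11.15 (pandas 2.3.3, scipy 1.17.1). Genes came from GENCODE 44 on GRCh37 and sequences from GRCh37 (pysam 0.24.0), and 31-base words were counted on both strands (numba 0.67.0). Shares have 95% Wilson intervals that cover counting error alone. RNase H shares were compared between libraries with a two-sided exact permutation test; labels name biological replicates without saying how cultures were separated. The rule and the recovery of fragment counts were tested on simulated data, and 100% of both were recovered. Named were the 12 members with the highest weakest percentile, members at gene starts, in the 5 longest genes, the widest and narrowest, the 3 just inside and 3 just outside the rule, and members of the gene lists. Sequences overlapping UTRs are not shown, and some others are not reported here. Alternatives were stricter peaks, lists of equal size, coverage of 50%, an RNase H filter, merging over 1000 bp, shared segments, 1 replicate alone, other definitions of absence and other windows.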

Additional observations from a re-analysis of the deposited data

How the results depend on the processing

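The 236 regions depended on the calling. Their number was 105 with a −log10 q of at least 3, 38 where peaks had to cover 50% of the region, and 819 where 1 of the 60 min lists could hold a peak; 63 of the 236 remained at the stricter q. Lists of equal size gave 300 regions, which took in 42.8% of the 236. With 1 replicate alone the number was 2745 to 3730, the median width 768 to 805 bp, the mean percentile 47.5 to 50.8, the share outside genes 28.6 to 44.7%, and the share with GC under 40% from 11.8 to 34.8%, the highest of both shares without replicate 2. The median width, 1408 bp, moved to 1721 bp at the stricter q, 2203 bp with equal lists, 703 bp with 50% coverage, 1564 bp with merging over 1000 bp and 618 bp with shared segments. With 50% coverage the mean percentile was 58.9, the share outside genes 42.1% and the share under 40% GC 21.1%; the GC share was 20.0% at the stricter q, and the share outside genes 27.7% with equal lists. In each case the cause was not tested beyond the change in which peaks counted.

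The RNase H differences turned negative with lists of equal size, -1.50 points for 60 min minus NT and -0.500 for 5 min minus NT. There each RNase H list was cut to 473 peaks. Leaving out a replicate gave 0.874 to 7.45 and 2.48 to 16.3. With the replicate as a block, the differences were 4.66 and 11.9 points, each with an exact p = 0.500, the smallest that 2 pairs allow. The 60 min minus NT difference was 8.10 points at the stricter q and 10.5 with 50% coverage, and 3.64 to 5.06 under the other settings; 5 min minus NT was 10.5 to 15.2 under these. For the number of regions, the remaining alternatives stayed within 1.5 times, and for width, percentile, place and GC within the 95% interval of the value reported. RNase H replicate 1 lists were short, with median summits of 4 to 8 fragments; whether this reflects depth was not tested.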
